A study of Mus musculus with 56 samples.

Results

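The genes described here are 10 genes of basophils, mast cells and related granulocytes: Prss34, Mcpt8, Cpa3, Ctsg, Fcer1a, Ms4a2, Gata2, Kit, Pf4 and Rgs18. They were chosen by their measured values, because many of them were higher in cultures of enzyme-deficient T cells than in WT cultures, and they are 10 of the 47937 genes listed in each count table. The difference between deficient and WT libraries is therefore given for them as a description. Whether a gene was called in the test over all genes is stated, and nothing is read from it. CD4+ T cells from spleen and lymph node of C57BL/6 mice were activated through CD3 and CD28 with IL-2 and polarized to TH1, TH2, TH17 or Treg cells. RNA was sequenced on day 4. The deficient mice carried floxed Odc, the gene of ornithine decarboxylase (labelled ODC_KO, here Odc-/-), or floxed Dohh, the gene of deoxyhypusine hydroxylase (labelled DOHH_KO, here Dohh-/-). Both carried Cre under the Cd4 promoter, which is active in developing T cells. The controls were littermates and, as the study describes them, lacked Cre. Whether they carried floxed alleles is not given in the sources used here, and age and sex were not given per library. The Odc table held 16 WT and 15 Odc-/- libraries, 4 per polarization, except that 1 of the 4 Odc-/- TH2 samples was not analysed here, which leaves 3. The Dohh table held 12 WT and 12 Dohh-/- libraries, 3 per polarization.

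TH2 medium contained IL-4 at 10 ng/mL. The other media contained an antibody to IL-4, and TH17 and Treg media contained TGF-beta. The labels describe a negative selection of CD4+ T cells and the study's methods a negative selection of naive CD4+ T cells, and neither selection is a positive sort. The study's results also speak of sorted naive CD4+ T cells from both deficient lines. Nothing says whether same-numbered libraries came from the same mice, so the spread between libraries may be partly technical.

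Basophils and mast cells are granulocytes that bind IgE through the high-affinity receptor FcεRI and release proteases, histamine and cytokines when it is crosslinked. IL-3 is a main growth factor of basophils and stem cell factor, the ligand of Kit, that of mast cells. Both lineages depend on the transcription factor GATA2, which binds DNA at GATA motifs. FcεRI and these granule proteases are not typical products of T cells.

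The promoters of the genes are shown first because GATA factors are among the regulators of these lineages and GATA2 is itself 1 of the genes. RefSeq sequences (GRCm38.p6) of the 250 bases before the annotated start were matched by symbol for 9 of the 10 genes, all but Rgs18. They were searched for AGATAA and TGATAA and, for the other strand, TTATCT and TTATCA, which do not overlap one another in these windows. Of 32817 such windows over all genes, 16.6% held at least 1 of these motifs. The 9 genes have 11 windows, of which 4, each of a different gene, held at least 1. Prss34 had 1 motif starting 31 bases before the start, Cpa3 had 1 at 46 bases, Fcer1a had 1 at 92 bases, and Ms4a2 had 3, at 224, 37 and 11 bases. The last 150 bases before the start are printed for these 4 genes, 5′ to 3′ on the gene's own strand, with the motifs in capitals. The Prss34 window lies at chr17:25298244-25298393 on the plus strand, and those of Cpa3 (chr3:20242182-20242331), Fcer1a (chr1:173227230-173227379) and Ms4a2 (chr19:11623720-11623869) lie on the minus strand.
Prss34: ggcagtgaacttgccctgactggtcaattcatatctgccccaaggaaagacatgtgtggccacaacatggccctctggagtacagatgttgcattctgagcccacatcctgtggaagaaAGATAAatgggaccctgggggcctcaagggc
Cpa3: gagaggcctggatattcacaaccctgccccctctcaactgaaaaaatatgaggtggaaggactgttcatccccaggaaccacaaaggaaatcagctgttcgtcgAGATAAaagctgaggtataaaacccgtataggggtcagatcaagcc
Fcer1a: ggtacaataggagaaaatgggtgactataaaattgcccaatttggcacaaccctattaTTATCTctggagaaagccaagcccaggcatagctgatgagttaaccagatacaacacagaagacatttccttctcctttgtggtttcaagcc
Ms4a2: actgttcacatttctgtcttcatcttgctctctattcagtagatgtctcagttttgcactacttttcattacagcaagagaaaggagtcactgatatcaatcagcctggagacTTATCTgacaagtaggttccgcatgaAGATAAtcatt
The windows of Mcpt8, Ctsg, Pf4, Kit and Gata2 held none of these letters. A match is a sequence description, and binding was not measured.

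Libraries held between 5905374 and 12576933 counts in genes, so that 3 counts, the limit used here for a count of 0, correspond to between 0.226 and 0.499 CPM (counts scaled to a common library total, with TMM factors). Intervals and limits cover counting error only. In the libraries labelled Odc-/-, Odc1 was at 424 to 680 CPM in TH1 cells against 418 to 739 CPM in WT, and the groups overlapped in TH2 and Treg as well. In TH17 it averaged 554 CPM against 733 CPM in WT, without overlap (log2 fold change -0.40, adjusted p = 0.0416), a difference under 2-fold. In the libraries labelled Dohh-/-, the Dohh gene was higher than in WT in TH1, TH2 and Treg cells (group means of 83.8 to 99.5 CPM against 36.8 to 39.2 CPM). In TH17 cells it was at 53.6 CPM against 40.4 CPM, where the groups overlapped and the difference did not pass (edgeR quasi-likelihood test, adjusted p = 0.189). Dohh was also higher in Odc-/- TH1, TH2 and Treg cells, 2.39-fold, 2.25-fold and 2.16-fold by the means, without overlap. In Odc-/- TH17 it was 1.54-fold higher, a difference under 2-fold. The Odc1 and Dohh levels are counts over the whole gene and not over the deleted exons, so they do not check the labels. T cell markers were high in every group: the 15 genes of that list summed to 5011 to 7906 CPM in WT and 3733 to 8663 CPM in deficient libraries. Within a culture, deficient sums lay below every WT library in Odc-/- TH1 and TH2 and in Dohh-/- TH2, TH17 and Treg. In Odc-/- TH2 they were 3733 to 4332 CPM against 5648 to 6408 CPM. In the other cultures they overlapped WT. Of the 15, 5 were called lower in each Dohh-/- culture, where 11.6% to 15.2% of all genes were. In Odc-/- TH1, TH2, TH17 and Treg 0, 4, 1 and 1 were called lower, where 11.3%, 13.6%, 7.21% and 10.1% of all genes were. The list's median log2 fold change was below 0 in all 8 comparisons, from -0.69 to -0.048. Cd28 was lower in 6 comparisons, Cd4 and Cd2 in 5, Cd5 and Trac in 4, and Cd3d and Cd3g in 1. Only Thy1 was called higher, in the 4 Dohh-/- cultures. These are bulk libraries, in which more cells of a type and more RNA per cell cannot be told apart.

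Of the 10 genes, 9 were called higher (over 2-fold, adjusted p under 0.05, edgeR quasi-likelihood test over all genes) in each of the 4 Odc-/- cultures. In Dohh-/- cultures 10 were called in TH1 and TH17 and 9 in TH2 and Treg. The share of all genes called higher was 10.2% in Odc-/- TH1, 11.5% in TH2, 8.35% in TH17 and 13.9% in Treg libraries, and 14.8%, 14.3%, 17.3% and 17.5% in the Dohh-/- libraries in the same order. None of the 10 was called lower, where 11.3%, 13.6%, 7.21% and 10.1% of all genes were in the Odc-/- comparisons and 14.2%, 11.6%, 14.1% and 15.2% in the Dohh-/- ones. Of the 80 edgeR tests of a gene in a comparison, 1 gave a lower level at an unadjusted p under 0.05 (Kit in Odc-/- TH1), and DESeq2 called 0 lower. All deficient libraries lay above every WT library for 7, 8, 8 and 9 of the 10 genes in Odc-/- TH1, TH2, TH17 and Treg, and for 21.9%, 30.6%, 21.5% and 25.2% of all genes tested. In each Dohh-/- culture they did so for the 10 genes, and for 23.7%, 31.9%, 29.9% and 34.3% of all genes. Since the genes were picked on this contrast, nothing is read from these counts. The median log2 fold change over the 10 genes was 4.98, 4.03, 3.50 and 4.31 in Odc-/- TH1, TH2, TH17 and Treg and 6.69, 7.39, 8.45 and 6.76 in the Dohh-/- cultures. With a prior count of 2 in place of the smaller default of edgeR, which pulls folds of genes with few WT reads towards 0, these medians were 3.81, 2.79, 3.00 and 3.35 in the Odc-/- cultures and 5.40, 5.91, 6.83 and 5.94 in the Dohh-/- ones. With genes at 0 WT counts set to their lower bound, those of Odc-/- TH1 and of Dohh-/- TH1, TH2 and TH17 were 4.5, 6.18, 6.76 and 8.16, and the others did not move. The medians over all genes tested lay between -0.00193 and 0.0731. The 2 tables come from separate sets of libraries with separate WT groups, and the size of the difference was not tested between them.

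Mcpt8 (ENSMUSG00000022157, chr14:56082166-56085273, minus strand in GRCm38, protein coding) encodes mast cell protease 8, a serine protease known as a basophil marker. In Odc-/- TH1 libraries Mcpt8 was at 2.72, 11.0, 46.9 and 11.8 CPM in replicates 1 to 4, against 0.433, 0.853, 1.02 and 1.04 CPM in WT. In TH17 it was at 9.17, 21.4, 97.3 and 24.2 CPM against 3.71, 0.937, 5.09 and 4.41 CPM. The groups did not overlap in any of the 4 cultures, and in each the highest deficient library was replicate 3. Mean Mcpt8 levels were 21.7-fold higher in TH1, 9.33-fold in TH2, 10.8-fold in TH17 and 11.7-fold in Treg. Without Odc-/- replicate 3 of the culture, the log2 fold change fell from 4.41 to 3.33 in TH1, from 3.41 to 2.36 in TH17 and from 3.55 to 2.64 in Treg. In Dohh-/- TH17 libraries Mcpt8 reached 57.8, 199 and 513 CPM against 0.888, 0.390 and 1.04 CPM, a 332-fold difference of the means, and the log2 fold change of 8.36 fell to 7.38 without replicate 3. In Dohh-/- TH2 it was at 17.4, 133 and 137 CPM against 0.659, 0.846 and 0.897 CPM. In both cultures replicate 1 was the lowest of the deficient libraries and still far above every WT library.

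**Figure D1:**
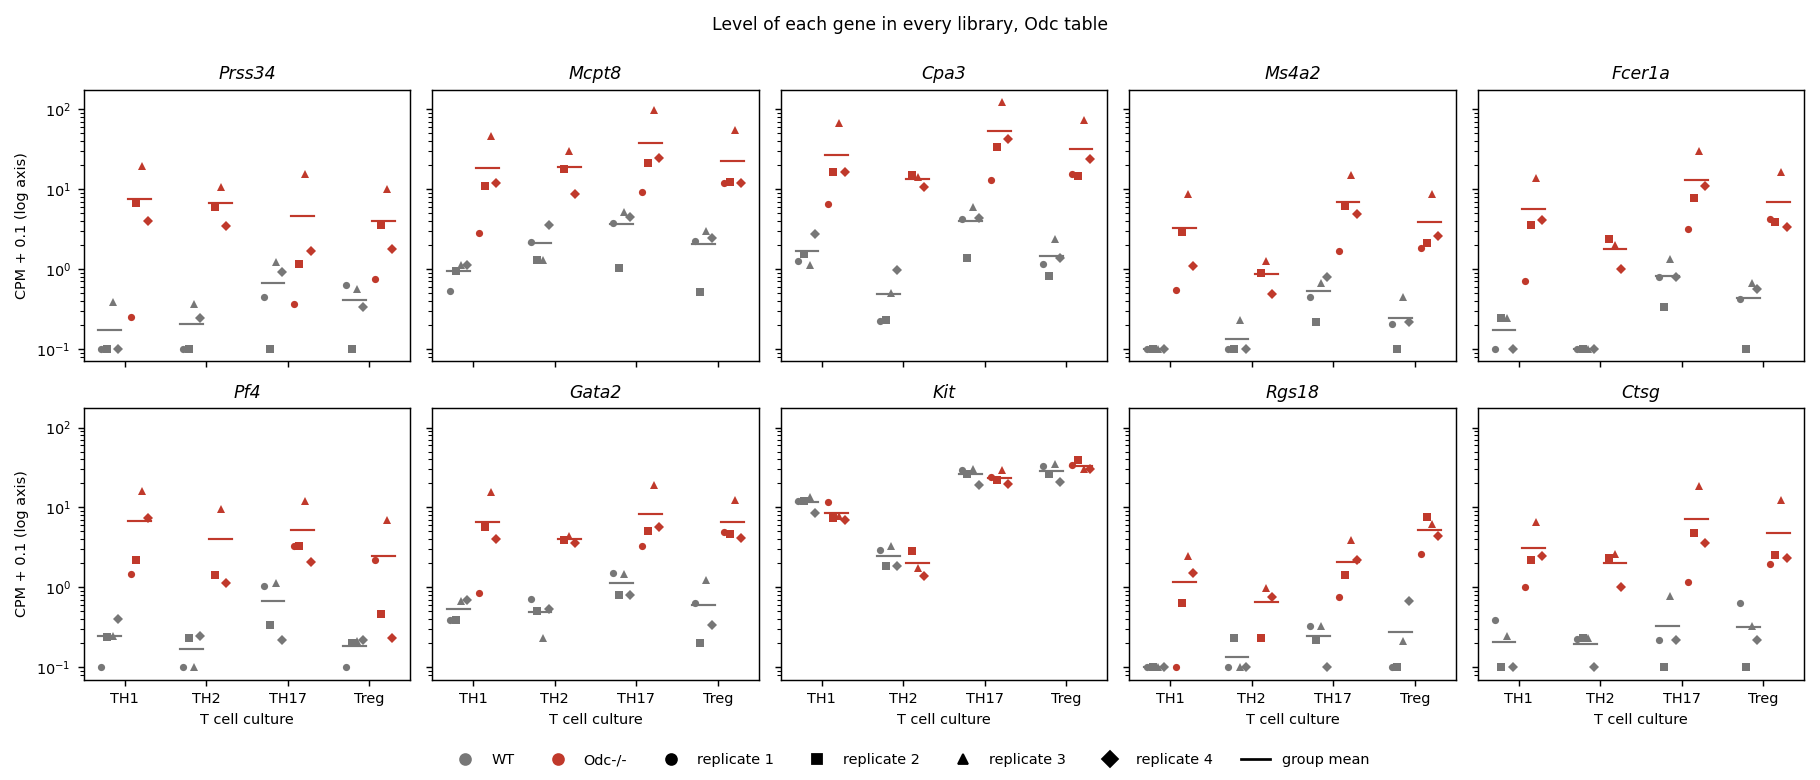
Level of each of the 10 genes in the Odc table, as CPM plus 0.1 on a log axis, in WT (grey) and Odc-/- (red) libraries of the 4 cultures. Each point is a library, its shape gives the replicate number and the bar is the group mean. Kit overlaps in all 4 cultures, Prss34 in TH1 and TH17, and Rgs18 in TH1 and TH2. The lowest Odc-/- Treg library of Pf4 holds 1 count, as do 3 of its WT libraries, and most genes are highest in replicate 3.

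Prss34 (ENSMUSG00000056399, chr17:25298394-25300165, plus strand) encodes mast cell protease 11, a tryptase-like protease of basophils. WT levels were low, at no more than 1.13 CPM in any library. All WT TH1 libraries of the Dohh table had 0 counts of Prss34, against 7, 622 and 44 counts in Dohh-/- TH1 (0.715, 98.2 and 4.85 CPM). Measured against a floor of 3 counts over the WT group, it was at least 276-fold higher. That value rested on replicate 2: without it the call was lost. In Dohh-/- TH2 libraries it was at 4.83, 106 and 81.0 CPM, with 1 count in the 3 WT libraries together. When replicate 3 of both genotypes was left out, its calls in Dohh-/- TH2, TH17 and Treg were lost. The log2 fold changes were then 9.91, 7.07 and 6.61, against 10.5, 7.96 and 7.42 with all libraries. In Odc-/- TH1 libraries Prss34 was at 0.151, 6.61, 19.3 and 3.92 CPM, against 0, 0, 0.290 and 0 CPM in WT, and replicate 1 overlapped WT. The log2 fold change there was 6.41. It was 5.35 without Odc-/- replicate 3 and 8.86 without WT replicate 3. In Odc-/- TH2 libraries Prss34 was at 5.96, 10.7 and 3.36 CPM, against 0, 0, 0.267 and 0.146 CPM in WT, without overlap. The Odc-/- TH17 group depended on a single library: Prss34 was at 0.266, 1.05, 15.3 and 1.56 CPM, overlapping WT at 0.348, 0, 1.13 and 0.813 CPM. Its log2 fold change there was 2.89 and fell to 0.72 without Odc-/- TH17 replicate 3, where the call was lost. The call was also lost without WT TH17 replicate 1 or 2, at log2 fold changes of 2.713 and 2.485. In Odc-/- Treg the call was lost without replicate 3 (log2 fold change 3.63 with it and 2.64 without), and in Odc-/- TH17 and Treg also without replicate 2 or 4 of both genotypes. Without replicate 2 and 4 the log2 fold changes were 2.83 and 3.34 in TH17 and 3.26 and 3.74 in Treg.

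Cpa3 (ENSMUSG00000001865, chr3:20215620-20242181, minus strand) encodes carboxypeptidase A3, a granule enzyme shared by mast cells and basophils. In Odc-/- TH2 libraries Cpa3 was at 15.0, 14.3 and 10.5 CPM, against 0.122, 0.133, 0.401 and 0.875 CPM in WT. In Odc-/- TH17 it was at 13.0, 33.4, 122 and 42.5 CPM against 4.18, 1.29, 5.88 and 4.30 CPM. The groups did not overlap in any of the 8 comparisons. Means were 16.9-fold, 34.6-fold, 13.5-fold and 23.9-fold higher in Odc-/- TH1, TH2, TH17 and Treg. Without Odc-/- replicate 3 of the culture, the log2 fold change of Cpa3 fell from 4.07 to 3.05 in TH1, from 3.73 to 2.92 in TH17 and from 4.58 to 3.75 in Treg, and in TH2 it went from 5.11 to 5.83 without WT replicate 4. In the Dohh table Cpa3 reached 67.3, 302 and 252 CPM in Dohh-/- TH17 against 0.484, 0.585 and 0.462 CPM, 406-fold higher by the means. In Dohh-/- TH1 it was at 25.0, 52.4 and 188 CPM against 0.911, 1.89 and 1.57 CPM, and there replicate 3 was the highest.

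Ctsg (ENSMUSG00000040314, chr14:56099881-56102574, minus strand) encodes cathepsin G, a granule protease of neutrophil precursors, monocytes and mast cells. It lies beside Mcpt8 in the chymase and granzyme cluster. Ctsg was between 0.904 and 18.6 CPM in Odc-/- libraries and no WT library of that table exceeded 0.678 CPM. The highest value, 18.6 CPM, was again in TH17 replicate 3. In Dohh-/- TH17 it was at 8.83, 39.3 and 110 CPM against 0.484, 0.195 and 0.115 CPM in WT. Without replicate 2 of both genotypes its calls in Dohh-/- TH1 and Odc-/- TH2 were lost. The log2 fold changes were then 4.884 and 4.055, against 5.776 and 4.048 with all libraries.

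**Figure D2:**
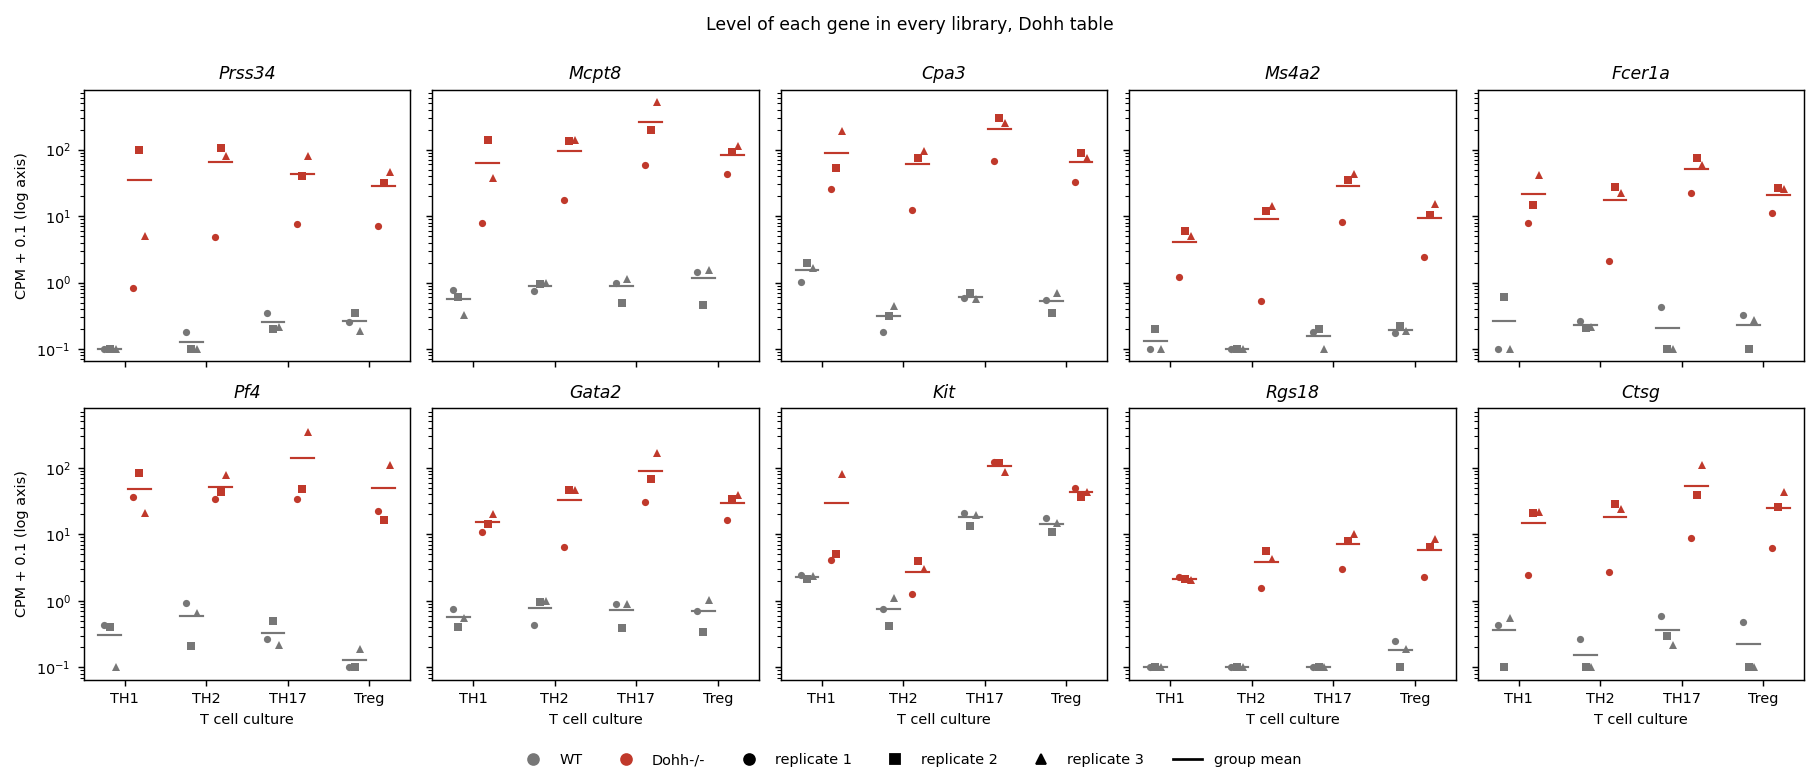
The same plot for the Dohh table, CPM plus 0.1 on a log axis in WT (grey) and Dohh-/- (red) libraries, with the bar at the group mean. The lowest deficient library lies above the highest WT library in each panel, as it does for 23.7% to 34.3% of all genes tested; the gap is narrow for Kit in TH2 cultures.

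The 2 receptor genes encode the chains that set FcεRI apart from other Fc receptors. Fcer1a (ENSMUSG00000005339, chr1:173221284-173227214, minus strand) encodes the IgE-binding alpha chain. It had 0 counts in the 4 WT TH2 libraries of the Odc table and was at 2.25, 1.91 and 0.904 CPM in Odc-/- TH2, at least 16.9-fold higher. In Odc-/- TH17 Fcer1a was at 3.06, 7.63, 30.1 and 10.9 CPM against 0.696, 0.234, 1.24 and 0.697 CPM. In Dohh-/- TH17 it was at 22.0, 73.5 and 59.2 CPM, against 0.323, 0 and 0 CPM. No deficient library overlapped WT in any of the 8 comparisons. Ms4a2 (ENSMUSG00000024680, chr19:11615523-11623719, minus strand) encodes the beta chain, which amplifies signalling and is largely restricted to mast cells and basophils. All WT TH1 libraries of the Odc table had 0 counts of Ms4a2, against 3, 21, 61 and 7 counts in Odc-/- TH1, at least 29.8-fold higher. In Odc-/- TH2 there were only 6, 9 and 3 counts, against 1 in all WT libraries, a ratio of 23.3 with a 95% counting interval from 3.69 to 973. The call there was lost without Odc-/- replicate 2 or 3 or without WT replicate 1, 2 or 4. In those fits the log2 fold change was 3.61 to 3.99, against 4.00 with all libraries. In Dohh-/- TH17 Ms4a2 was at 7.91, 35.2 and 42.9 CPM with 2 counts in WT, a ratio of 433 (119 to 3581). Its call in Dohh-/- TH1 was lost without replicate 2 or 3 of both genotypes, at log2 fold changes of 7.92 and 5.89 against 6.43 with all libraries.

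Gata2 (ENSMUSG00000015053, chr6:88193891-88207032, plus strand) encodes the transcription factor named above. In Odc-/- TH2 libraries Gata2 was at 3.84, 4.33 and 3.49 CPM, against 0.612, 0.400, 0.134 and 0.437 CPM in WT, 9.82-fold higher by the means. In Odc-/- TH17 it was at 3.19, 5.00, 18.8 and 5.60 CPM against 1.39, 0.702, 1.36 and 0.697 CPM. In Dohh-/- TH17 it reached 30.0, 68.1 and 170 CPM against 0.807, 0.293 and 0.808 CPM, 140-fold higher, and its log2 fold change of 7.10 fell to 6.25 without replicate 3. The log2 fold change was 4.94 in Dohh-/- TH1, 5.61 in TH2 and 5.55 in Treg, and no deficient library overlapped WT in either table.

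Pf4 (ENSMUSG00000029373, chr5:90772435-90773383, plus strand) encodes platelet factor 4, a chemokine of megakaryocytes and platelets that mast cells and basophil precursors can also carry. In Odc-/- Treg libraries Pf4 was at 2.11, 0.361, 6.86 and 0.130 CPM, the last of these 1 count, as in 3 of the 4 WT libraries (0, 0.103, 0.115 and 0.117 CPM). Its call in Odc-/- TH2, TH17 and Treg was lost without replicate 3 of the culture, where the log2 fold change went from 5.59 to 3.85, from 3.07 to 2.23 and from 4.59 to 3.15. In Dohh-/- Treg it was at 22.4, 16.3 and 111 CPM, with 1 count in WT, and in Dohh-/- TH17 at 34.0, 48.1 and 342 CPM against 0.161, 0.390 and 0.115 CPM. Dohh-/- replicate 3 thus stood above the other deficient libraries in both cultures, and without it the log2 fold change fell from 10.19 to 8.79 in Treg and from 9.22 to 7.46 in TH17. With a prior count of 2 these log2 fold changes were 7.76 in Treg and 8.37 in TH17. Rgs18 (ENSMUSG00000026357, chr1:144752683-144775435, minus strand) encodes a regulator of G protein signalling of platelets and myeloid cells. It had 0 counts in all WT TH1, TH2 and TH17 libraries of the Dohh table, against 13 to 98 counts in each Dohh-/- library of those cultures. Rgs18 was at 2.51, 7.47, 6.08 and 4.30 CPM in Odc-/- Treg, against 0, 0, 0.115 and 0.583 CPM, and in this gene and culture replicate 3 was not the highest. Rgs18 overlapped WT in Odc-/- TH1, where all WT libraries and Odc-/- replicate 1 had 0 counts, and in Odc-/- TH2. In Odc-/- TH2 its call was lost without Odc-/- replicate 3 or 4 or without WT replicate 1, 3 or 4. The log2 fold change was then 3.04 to 3.42, against 3.54 with all libraries.

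Kit differed from the other 9. Kit (ENSMUSG00000005672, chr5:75574916-75656722, plus strand) encodes the receptor tyrosine kinase for stem cell factor, present on mast cells and haematopoietic progenitors. In WT libraries of the Odc table it was at 12.0, 11.9, 13.4 and 8.44 CPM in TH1 and at 2.82, 1.73, 3.21 and 1.75 CPM in TH2. It was at 29.3, 25.9, 30.5 and 19.1 CPM in TH17 and at 32.9, 26.5, 34.8 and 20.5 CPM in Treg. WT levels were thus high in TH17 and Treg, lower in TH1 and lowest in TH2, and TH17 and Treg overlapped. Odc-/- libraries followed the same order, at 11.5, 7.27, 7.60 and 6.86 CPM in TH1, 2.78, 1.66 and 1.29 CPM in TH2, 23.8, 21.8, 29.0 and 19.5 CPM in TH17 and 34.0, 38.8, 29.9 and 29.8 CPM in Treg. They overlapped WT in all 4 cultures, with log2 fold changes from -0.47 to 0.21.

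In Dohh-/- libraries Kit was above WT in all 4 cultures, and it was called higher in TH1 and TH17 but not in TH2 or Treg. These calls were not stable. DESeq2 called Kit in TH2 (log2 fold change 1.99). Without replicate 3 of both genotypes it was called in TH2 and Treg and not in TH1 (log2 fold changes 2.30, 1.59 and 1.05). It was at 121, 116 and 85.7 CPM in Dohh-/- TH17 against 20.9, 13.3 and 19.5 CPM, 6.02-fold higher, and at 48.9, 36.6 and 43.6 CPM in Treg against 17.5, 10.6 and 14.6 CPM, 3.02-fold higher (log2 fold change 1.59, SE 0.70). In TH2 it was at 1.15, 3.87 and 2.86 CPM against 0.659, 0.317 and 1.01 CPM (log2 fold change 1.98, SE 1.07). The TH1 value rested on a single library: Kit was at 3.99, 4.89 and 80.5 CPM against 2.32, 1.99 and 2.24 CPM. Its log2 fold change in TH1 was 3.77 and fell to 1.01 without Dohh-/- TH1 replicate 3. In TH17 the log2 fold change was 2.59 (SE 0.71), and 2.35 without replicate 2 of both genotypes, where the call was lost. Kit is the only one of the 10 genes with over 10 CPM in any WT library.

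How the genes varied between cultures was not used to choose them, and in WT libraries it does not involve the contrast they were chosen on. The 9 genes other than Kit had few WT reads, 12 to 274 counts over the 16 Odc controls and 3 to 101 over the 12 Dohh controls, and passed the low-count filter with the deficient libraries included, so no test between WT cultures is read for them. Kit differed between the 4 polarizations in both sets of controls (edgeR quasi-likelihood F test, adjusted p = 1.37e-12 and 0.00085), where 71.1% of all genes did among the Odc controls and 40.1% among the Dohh controls. It was lower in TH2 than in the mean of the other 3 cultures by a log2 difference of -3.09 (SE 0.22, adjusted p = 4.68e-12) among Odc controls and -3.63 (SE 0.90, adjusted p = 0.00598) among Dohh controls, where the call was lost without replicate 2 (adjusted p = 0.0626). Genes called lower in WT TH2 made up 4.83% and 4.74% of all genes, and genes called higher 8.08% and 6.07%. The most abundant of the other genes did not have their highest mean in the same culture in the 2 sets of controls. Cpa3 averaged 3.91 ± 1.91 CPM in TH17 and 0.383 ± 0.352 CPM in TH2 among Odc controls (SD, n = 4), its highest and lowest means there. Among Dohh controls its highest mean was in TH1, at 1.46 ± 0.50 CPM against 0.511 ± 0.066 CPM in TH17 (SD, n = 3). Its lowest mean was in TH2 there too, at 0.210 ± 0.127 CPM. Mcpt8 was highest in TH17 among Odc controls (3.54 ± 1.82 CPM, SD, n = 4) and in Treg among Dohh controls (1.06 ± 0.60 CPM, SD, n = 3).

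Between deficient cultures, a test is biased towards a difference for a gene that passed the low-count filter only through cultures where it was high. A test is therefore read only for genes that reached the level of the filter (1.30 CPM of the library total for Odc libraries and 1.02 CPM for Dohh libraries, in at least 3 libraries of a culture) in all 4 deficient cultures or in all 4 WT cultures of a table. These were Mcpt8, Cpa3, Gata2 and Kit for Odc-/- cultures, and all but Prss34 and Ms4a2 for Dohh-/- cultures. Kit differed between the Odc-/- polarizations (edgeR quasi-likelihood F test, adjusted p = 1.56e-12), as did 53.9% of all genes. It was lower in Odc-/- TH2 than in the other cultures by a log2 difference of -3.28 (SE 0.26, adjusted p = 9.29e-11), where 6.32% of all genes were lower and 5.22% higher. Cpa3 (adjusted p = 0.0794), Mcpt8 (0.431) and Gata2 (0.491) did not pass the F test in Odc-/- cultures. With a replicate block in the F test Cpa3 passed (adjusted p = 0.00271), and with the block within genotype Mcpt8 did too (0.00285). Of the genes with no test, Ms4a2 averaged 0.776 ± 0.380 CPM in Odc-/- TH2 (SD, n = 3) and 6.86 ± 5.73 CPM in TH17 (SD, n = 4). Rgs18 averaged 0.557 ± 0.387 CPM in Odc-/- TH2 and 5.09 ± 2.15 CPM in Treg. Neither Ms4a2 nor Rgs18 reached the level of the filter in Odc-/- TH2, so no difference is read from these means. Between polarizations of Dohh-/- libraries Kit (adjusted p = 0.000516) and Gata2 (0.00876) differed, as did 39.6% of all genes, and the other 6 genes with a test did not pass (adjusted p from 0.0873 to 0.274). With a replicate block in the F test Cpa3 (adjusted p = 0.000617), Fcer1a (0.0259) and Mcpt8 (0.0366) passed there. Kit was lower in Dohh-/- TH2 (log2 difference -4.29, SE 0.77, adjusted p = 0.000528), where 2.78% of all genes were lower and 6.01% higher. Gata2 averaged 89.3 ± 72.3 CPM in Dohh-/- TH17 and 15.1 ± 4.90 CPM in TH1 (SD, n = 3). Its call in the F test was lost without Dohh-/- TH17 replicate 3 (adjusted p = 0.0996), and without all libraries of replicate 2 (0.119) or replicate 3 (0.198).

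Most of the genes were highest and lowest in the same deficient libraries. Leaving out Kit, 9 genes in 4 cultures give 36 comparisons per table. Odc-/- replicate 3 was the highest library in 33 of the 36 and replicate 2 in the other 3, and replicate 1, which has no TH2 library, was the lowest in 21. In the Dohh table replicate 1 was the lowest deficient library in 33 of 36, and the highest was replicate 3 in 22, replicate 2 in 13 and replicate 1 in 1. Genes of a library are not independent replicates and no test is given. Leaving out 1 library at a time moved the fold change by over 1.5 times in 51 of the 80 pairs of a gene and a comparison, and Odc-/- replicate 3 of the culture did so in 25 of them. The total counts of the Odc-/- replicate 3 libraries ran from 5905374 to 7881452 and those of all Odc-/- libraries from 5905374 to 8012659.

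**Figure D3:**
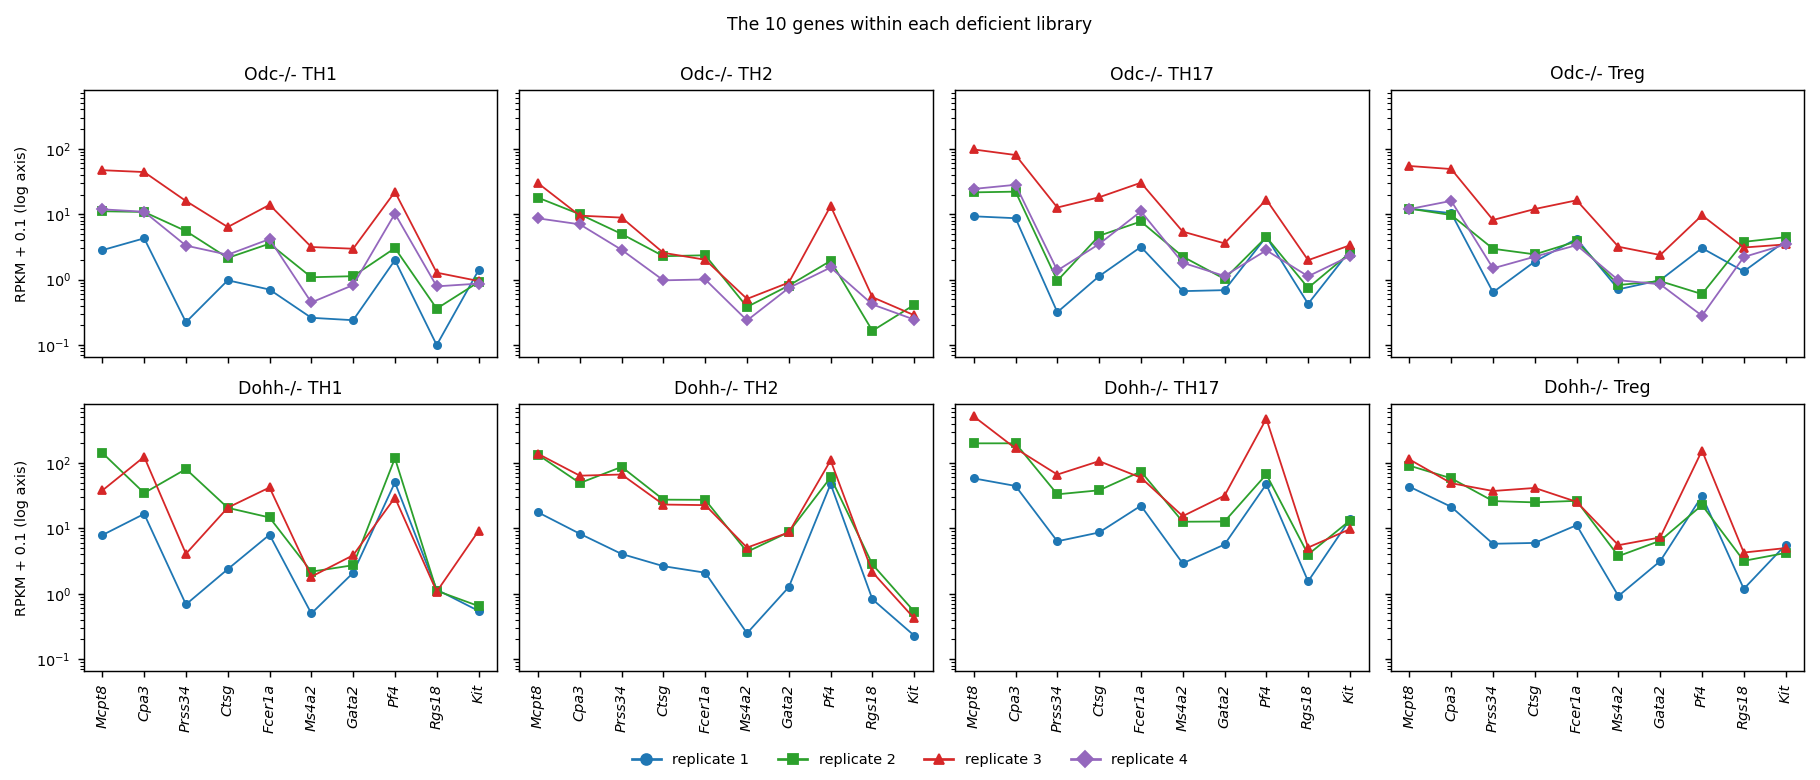
The 10 genes within each deficient library, as reads scaled by exon length and library total (RPKM plus 0.1, log axis), Odc-/- above and Dohh-/- below, with a line for each replicate. Lines cross at Kit, at Pf4 in Odc-/- Treg and at several genes in Dohh-/- TH1; replicate 3 lies highest for most genes in the Odc-/- panels and replicate 1 lowest for most genes in the Dohh-/- panels.

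Per length, using the union of GENCODE vM21 exons, Mcpt8 and Cpa3 had the highest group means of the 10 genes in Odc-/- cultures. Mcpt8 averaged 38.1 ± 40.2 RPKM and Cpa3 34.7 ± 31.4 RPKM in Odc-/- TH17 (SD, n = 4), and these neighbours in the order did not differ beyond their spread. Fcer1a averaged 13.0 ± 11.9 RPKM, and Ms4a2 was at 2.44 RPKM and Rgs18 at 0.971 RPKM. In Dohh-/- TH17 Mcpt8 averaged 257 ± 233 RPKM and Cpa3 137 ± 81.6 RPKM (SD, n = 3), again within their spread. Pf4 was at 47.1, 66.7 and 474 RPKM there, so that its mean of 196 RPKM rested on replicate 3. Gata2 averaged 16.5 ± 13.4 RPKM and Kit 12.1 ± 2.17 RPKM.

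The genes were also compared within each deficient library, as reads of a gene per read of Mcpt8. Prss34 reads per Mcpt8 read were 0.336 to 0.394 in Odc-/- TH2 and 0.0290 to 0.157 in Odc-/- TH17. Prss34 did not reach the level of the filter in Odc-/- TH17, so no difference is read there. In the Dohh table, where Prss34 reached that level in both cultures, the ratios were 0.277 to 0.799 in TH2 and 0.132 to 0.203 in TH17, without overlap. Fcer1a reads per Mcpt8 read were 0.0647 to 0.127 in Odc-/- TH2 and 0.309 to 0.452 in TH17. Fcer1a did not reach the level of the filter in Odc-/- TH2, so no difference is read there either. The Dohh-/- ranges of that ratio overlapped, at 0.114 to 0.204 in TH2 and 0.116 to 0.380 in TH17. Cpa3 per Mcpt8 was 0.562 to 0.711 in Dohh-/- TH2 and 0.369, 3.22 and 4.98 in the Dohh-/- TH1 libraries. In that culture replicate 2 had 899 Mcpt8, 622 Prss34, 332 Cpa3 and 31 Kit counts, and replicate 3 had 342 Mcpt8, 44 Prss34, 1704 Cpa3 and 730 Kit counts. Mcpt8 and Prss34 were thus higher in the one library, and Cpa3 and Kit in the other library of the same group. Gata2 reads per Mcpt8 read likewise ran up to 1.38 in Dohh-/- TH1 around a median of 0.541, and from 0.337 to 0.361 in Dohh-/- TH2. Pf4 per Mcpt8 ran from 0.0110 to 0.176 in Odc-/- Treg. Kit, which has a WT level of its own, did not follow Mcpt8: in Odc-/- TH1 replicates 1 to 4 it had 76, 55, 54 and 49 counts against 18, 83, 333 and 84 of Mcpt8, and the ratio went from 4.22 in replicate 1 to 0.162 in replicate 3.

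**Figure D4:**
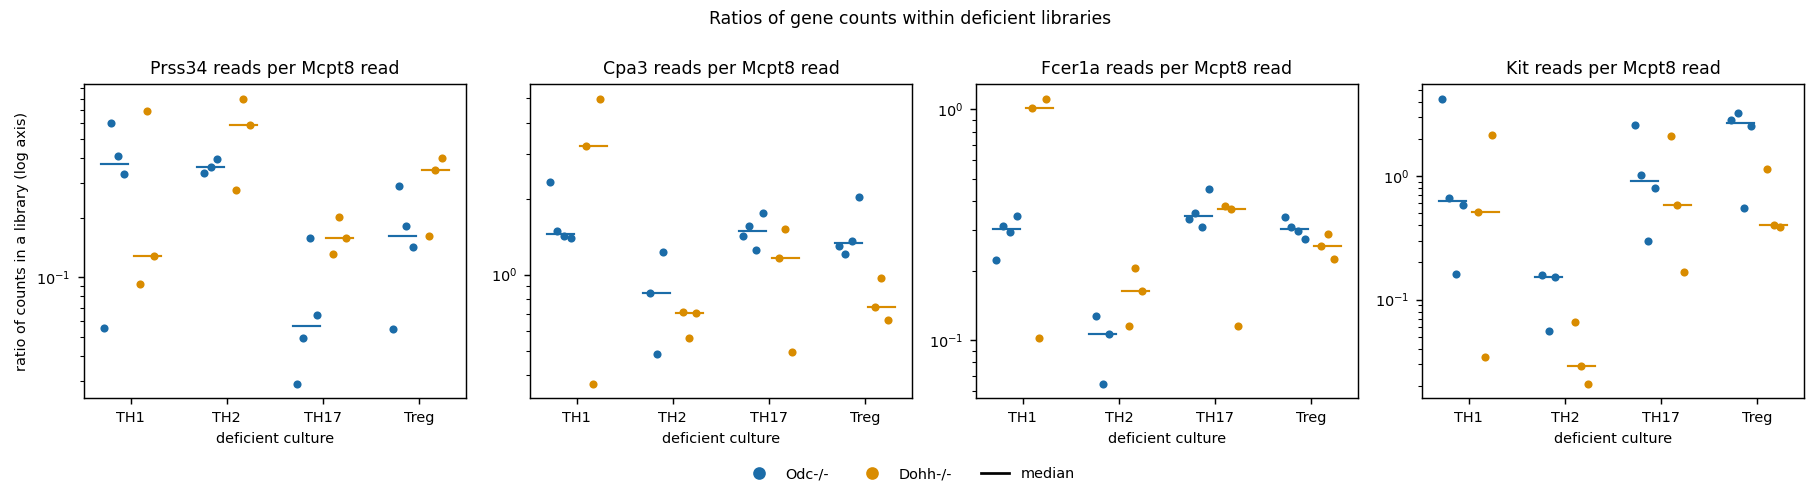
Counts of Prss34, Cpa3, Fcer1a and Kit per count of Mcpt8 in each deficient library (log axes), Odc-/- in blue and Dohh-/- in orange, with the median of each group as a bar. Prss34 per Mcpt8 is higher in TH2 than in TH17 of the Dohh table. Prss34 in Odc-/- TH17 and Fcer1a in Odc-/- TH2 did not reach the level of the low-count filter. The median of Kit per Mcpt8 is lowest in TH2, and the Dohh-/- TH1 libraries are widely scattered.

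Other genes of basophils and mast cells were taken from a list of 36, of which 32 could be tested in at least 1 table and 26 in both. Of the 36, 28 were called higher in at least 1 of the 8 comparisons, 16 in 6 or more and 9 in all 8, where 34.4%, 4.74% and 1.12% of all genes tested in at least 1 table were. Of the 36, 5 were called lower in at least 1, as were 30.8% of all genes. In Odc-/- cultures 13, 14, 20 and 18 of the 27 tested genes were higher in TH1, TH2, TH17 and Treg. In Dohh-/- cultures 16, 20, 25 and 25 of 31 were. The medians over these genes ran from 2.23 to 5.91 on the log2 scale. The 9 higher in all 8 include Slc18a2, the vesicle transporter for histamine and serotonin, Alox5, which starts leukotriene synthesis, Il1rl1, the IL-33 receptor, Cd200r3, an activating receptor of basophils and mast cells, and Csf2rb, the beta chain shared by the receptors for IL-3, IL-5 and GM-CSF. Csf2rb has a near-identical neighbour, Csf2rb2, also called in all 8, and reads may have been split between them. Alox5 averaged 79.1 CPM in Dohh-/- TH17 and 0.720 CPM in WT (log2 fold change 6.69). Il3ra, the specific chain of the IL-3 receptor, and Ndst2, which makes heparin, were tested and called in neither direction. Tal1, a transcription factor of blood progenitors, megakaryocytes and mast cells, was higher in 7 and averaged 12.6 CPM in Dohh-/- TH17 against 0.196 CPM in WT; in Odc-/- TH2 it had 13 counts over the libraries against 3 in WT (adjusted p = 0.114). Lyl1, a factor related to Tal1, was higher in none and lower in 3, and Itga2, an integrin chain, was higher in 1 and lower in 1. Enpp3 was higher in 0 and lower in 2, Cd63 higher in 4 and lower in 1, and Hpgds higher in 3 and lower in 1.

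The mast cell proteases Mcpt1 and Mcpt2, which mark mucosal mast cells, were high in the deficient TH17 and Treg cultures. The media of these cultures contained TGF-beta and antibodies to both IFN-gamma and IL-4, and the part of either was not tested. Among WT cultures Mcpt1 reached the level of the filter in TH17 and Treg alone in both tables. Mcpt2 did so in the same cultures among Odc controls and in TH17 among Dohh controls. Mcpt1 averaged 148 CPM in Odc-/- TH17 and 125 CPM in Odc-/- Treg, against 1.88 CPM in Odc-/- TH1 and 9.16 CPM in Odc-/- TH2. In Dohh-/- libraries it averaged 2445 CPM in TH17, 1119 CPM in Treg, 2.30 CPM in TH1 and 16.1 CPM in TH2. Mcpt2 was at 18.2 to 127 CPM in Odc-/- TH17 and 25.1 to 133 CPM in Treg, and at no more than 0.646 CPM in any Odc-/- TH1 or TH2 library. Mcpt1 reached the level of the filter in all 4 Odc-/- cultures and differed between them (edgeR F test, adjusted p = 1.47e-08). No test is read for Mcpt2, or for Mcpt1 elsewhere, since they reached that level only in some cultures. Hdc, which makes histamine, differed between cultures as well, and its highest means were in TH2. It averaged 16.2 CPM in Odc-/- TH2 and 3.23 CPM in Treg (adjusted p = 0.000634), and 59.9 CPM in Dohh-/- TH2 and 15.6 CPM in Treg (adjusted p = 0.000868). Tpsb2, a tryptase, averaged 14.2 CPM in Dohh-/- TH17, where all WT libraries had 0 counts.

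**Figure D5:**
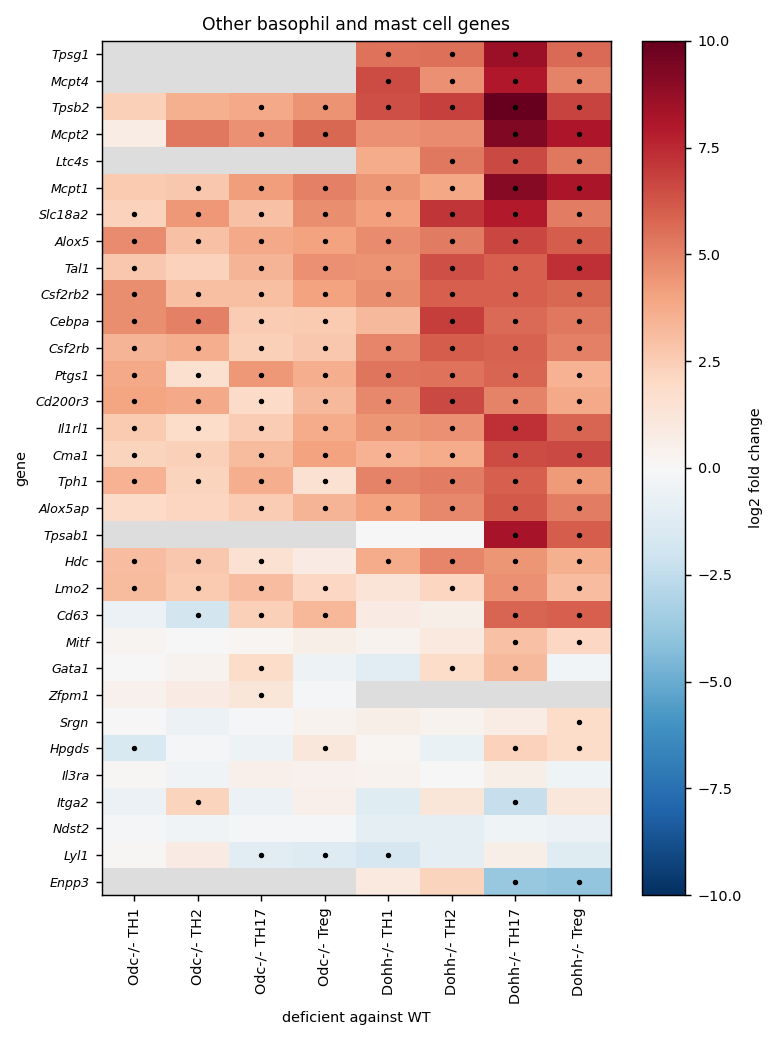
Fitted log2 fold change, deficient against WT, of the 32 other basophil and mast cell genes that could be tested, in rows by their mean, in the 8 comparisons (columns). A dot marks a call (over 2-fold, adjusted p under 0.05) and grey a gene not tested in that table. Of these genes 9 were called higher in all 8 comparisons and 16 in 6 or more, and Il3ra, Itga2, Ndst2, Lyl1 and Enpp3 lie at the bottom.

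Of 12 genes that carry the FcεRI signal, 5 to 6 were called higher in each comparison, where 8.35% to 17.5% of all genes were, and 0 to 2 lower, where 7.21% to 15.2% were. Fcer1g, the signalling gamma chain shared with other Fc receptors, and the kinases Lyn and Btk were higher in all 8, as was Plcg2. Fcer1g averaged 4.92 CPM in WT TH1 of the Odc table and 18.9 CPM in Odc-/- TH1, and 3.61 and 147 CPM in WT and Dohh-/- TH17. Lat, Inpp5d, Lcp2 and Vav1 were called in no comparison. Plcg1, the form used by T cells, was lower in 4 and higher in 0, and so was Gab2. These genes are also used by B cells, NK cells or other myeloid cells.

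Il3 itself was called in none of the 8 comparisons by edgeR, with 2 at an unadjusted p under 0.05 and 1 call by DESeq2. These 2 were Odc-/- TH17, where it averaged 0.830 CPM against 0.203 CPM in WT with overlap (adjusted p = 0.0514), and Dohh-/- TH2, where it was at 2.62, 4.69 and 7.32 CPM against 0.576, 2.43 and 1.01 CPM, without overlap (adjusted p = 0.06). In TH1 it averaged 4.91 CPM in WT and 6.18 CPM in Odc-/-. Csf2, which encodes GM-CSF, was called higher in 6 of 8 comparisons, from 1.44 to 39.4 CPM in Dohh-/- TH2 against its WT. Il13 was higher in 6, reaching 1613 CPM in Dohh-/- TH2 against 223 CPM in WT. Il5 was higher in 2, Odc-/- Treg and Dohh-/- TH2, and averaged 274 CPM in the latter against 22.0 CPM in WT. Il4 was higher in 3, Odc-/- TH1 and Treg and Dohh-/- Treg. In TH2 it averaged 45.7 CPM in Odc-/- and 58.2 CPM in WT (adjusted p = 0.399), and 47.3 and 62.1 CPM in Dohh-/- and WT (adjusted p = 0.346). Il9, a growth factor of mast cells, was higher in all 4 Odc-/- comparisons and in 0 of the Dohh-/- ones; it averaged 209 CPM in Odc-/- Treg and 3.42 CPM in WT, and 10.5 CPM in Dohh-/- Treg and 6.56 CPM in WT. The difference between the tables was not tested. Among GATA factors, Gata1 was higher in 3 comparisons, and Gata3, the TH2 factor, was higher in none and lower in 1.

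Neighbours of the genes on their chromosomes were counted against the 8.35% to 17.5% of all genes called higher in a comparison and the 7.21% to 15.2% called lower. In the chymase cluster around Mcpt8 and Ctsg, 7 to 9 of 9 tested genes were higher in the Odc-/- comparisons and 9 to 10 of 10 in the Dohh-/- ones, and 0 were lower. Gzmb, Gzmc, Gzmd, Gzme, Gzmf and Cma1 were higher in all 8 comparisons. Gzmb, a granzyme that activated T cells also make, averaged 5504 CPM in Dohh-/- Treg and 22.1 CPM in WT. Within 69.1 kb of Prss34 lie Tpsab1, Tpsb2 and Tpsg1, which were called higher in 2, 6 and 4 comparisons and lower in 0. Prss28 and Prss29 lie nearer to it and could not be tested. Farther off, Prss30 was higher in 4 and lower in 0, and Prss33 was higher in 0 and lower in 1. Prss41, a related gene 1454 kb away on the same chromosome, was lower in all 8 (log2 fold changes from -3.25 to -1.56). Near Ms4a2, 1 to 5 genes of that family were higher and 0 to 2 lower in each comparison, of 8 tested with Odc libraries and 10 with Dohh libraries. There the T cell gene Ms4a6b was lower in 6, and Ms4a3, a gene of granulocyte precursors, was higher in 6. Among the CXC chemokine genes beside Pf4, 0 to 2 of 3 tested were higher in Odc-/- cultures and 2 to 4 of 4 in Dohh-/- cultures, and 0 were lower. Ppbp, another platelet chemokine, was higher in 6 and averaged 14.8 CPM in Dohh-/- TH2 against 0.247 CPM in WT.

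Many markers of other cell types were also called higher, and some lower, where 8.35% to 17.5% of all genes were higher and 7.21% to 15.2% lower. Of 15 neutrophil genes, 10 of the 11 tested were higher in Odc-/- TH17 and Treg and 1 in TH1 and in TH2, and 1 was lower in TH1 and in TH17. In Dohh-/- cultures 2, 9, 14 and 14 of 14 were higher in TH1, TH2, TH17 and Treg and 0 lower. Their summed level ranged from 1.65 to 26.3 CPM in the WT controls of the Dohh set and from 2.35 to 14938 CPM over Dohh-/- libraries, and the defining granule gene Mpo averaged 59.5 CPM in Dohh-/- TH17 and 0.0269 CPM in WT. Their sum was highest in Odc-/- replicate 3 in all 4 cultures and lowest in Dohh-/- replicate 1 in all 4, as was that of megakaryocyte and platelet genes. For macrophage, eosinophil and progenitor genes this held in 3 and in 4 of 4 cultures. It held in 2 and 4 for dendritic cell genes and in 3 and 3 for erythroid genes. Of the 11 macrophage genes, 0 to 3 of 5 tested were higher in Odc-/- cultures, with 1 lower in TH1 and in TH2, and 1 to 9 of 9 were higher in Dohh-/- cultures, with 0 lower. They summed to 12.6 to 29.2 CPM in the Dohh controls and 6.34 to 419 CPM in Dohh-/- libraries. Of 15 megakaryocyte and platelet genes, 11 to 13 of the 15 tested were higher in Dohh-/- cultures, and 1 to 3 of the 6 tested in Odc-/- cultures. In each of these 8 comparisons except Dohh-/- Treg, 1 was lower. The list's summed level was lower in Odc-/- TH1 (72.1 to 178 CPM against 202 to 447 CPM in WT), in Odc-/- TH2 (98.6 to 179 against 212 to 258 CPM) and in Odc-/- TH17 (22.1 to 58.1 against 66.8 to 137 CPM), without overlap, and in Odc-/- Treg the ranges overlapped. In Dohh-/- cultures it was higher without overlap (TH1 118 to 165 against 96.8 to 115 CPM, TH2 275 to 364 against 116 to 155, TH17 109 to 593 against 64.9 to 82.2, Treg 60.5 to 208 against 22.1 to 31.5). Eosinophil genes were higher in 1 to 3 of 4 tested in Odc-/- cultures and in 2, 3, 7 and 6 of 7 in Dohh-/- TH1, TH2, TH17 and Treg, and 1 was lower in Odc-/- TH17. Genes of progenitors were higher in 0 to 3 of 4 and 3 to 6 of 7, dendritic cell genes in 0 to 2 of 2 and 1 to 3 of 3, and erythroid genes in 0 to 1 of 1 and 2 to 4 of 4, in Odc-/- and Dohh-/- cultures. Of these 3 lists 1 gene was lower, the erythroid gene tested in the Odc table, in Odc-/- Treg (log2 fold change -1.84). Of 6 NK cell genes, among them Prf1, which cytotoxic T cells also make, 5 to 6 of 6 were higher in Odc-/- cultures and 2 to 3 of 3 tested in Dohh-/- cultures. NK cell genes summed to 7.85 to 156 CPM in WT and 41.6 to 396 CPM in Odc-/- libraries, and to 2.80 to 94.3 CPM and 31.4 to 1674 CPM in the Dohh table. Their sum was highest in deficient replicate 1 in 3 of the 4 cultures of each table, unlike that of the 10 genes. Of the B cell genes, 9 of 10 were higher in Odc-/- TH1, TH2 and Treg and 2 in TH17, where 1 was lower, at sums of 177 to 1730 CPM against 70.0 to 320 CPM in WT, and their sum was highest in replicate 3 in 1 of the 4 Odc-/- cultures. In Dohh-/- TH1, TH2, TH17 and Treg 1, 0, 2 and 4 of 8 tested B cell genes were higher and 2, 1, 1 and 1 lower, and their sums did not overlap WT in 3 of these cultures. They were lower in TH1 (15.3 to 41.5 CPM against 64.3 to 82.6 CPM) and higher in TH17 (391.8 to 458.1 against 260 to 273 CPM) and Treg (569 to 852 against 284 to 300 CPM). The part of these cell types in the levels of the 10 genes was not tested. Over all libraries the 10 genes outside the lists whose levels were most like the mean of the basophil and mast cell genes (mean of standardized log2 CPM, Pearson r averaged over the tables, 31 and 24 libraries) were Rab38, Cd160, Tnfaip2, Tcrg-C1, Tyrobp, Hk3, Spp1, Tcrg-C4, Trdc and Clec12a, with a mean r from 0.918 to 0.938. These points share the split into deficient and WT libraries, so that any gene that is higher in deficient libraries scores high.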

How the data were processed

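Gene-level read counts were deposited by the authors as one table per deleted gene, unnormalized. The submitters' processing notes name STAR, featureCounts, DESeq2, deepTools and mm10, without roles or versions, and the annotation release is not given in the sources used here. Libraries were stranded mRNA. Of 56 samples listed, 55 libraries were analysed: 31 and 24 in the 2 tables, each tested on its own.

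Genes were filtered over the 8 groups of a table (filterByExpr), scaled by TMM and tested by edgeR 4.0.16 quasi-likelihood tests (robust, R 4.3.3, limma 3.58.1) with Benjamini-Hochberg adjustment over 13839 and 13897 genes. A call needs over 2-fold change and an adjusted p under 0.05. Tests between polarizations used the same fit within a genotype, with no fold limit for the F test. Scripts were tested on simulated data. CPM are counts over the TMM-scaled total, and RPKM use GENCODE vM21 exon lengths (GRCm38), which is no check of the annotation used for counting. A WT group with 0 counts was set to 3 counts over the group, which makes the fold a lower bound, and groups of 1 to 3 counts are given as a ratio of summed counts with its exact 95% interval. Python 3.11.15 (pandas 2.3.3, numpy 2.4.6) made the tables and matplotlib 3.10.9 the plots.

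The genes and gene lists were chosen with earlier results of these data known. The text names all 10 genes, and of the 36 other basophil and mast cell genes the 6 with the largest and 3 with the smallest mean log2 fold change. Of the other lists it names genes among the 2 most abundant and those called higher in 6 or more of 8 comparisons, plus Il3, Csf2, Il4, Il5, Il13, Gata1, Gata3, Hdc, Odc1 and Dohh. Il1rl1, Cd200r3, Csf2rb, Csf2rb2, Il3ra, Inpp5d, Lcp2, Vav1, Cd2, Cd4, Cd5, Cd28, Tpsab1, Tpsg1, Prss28, Prss29, Prss30 and Prss33 fall outside this rule and were named after their values were seen. The same holds for Enpp3, Cd63, Hpgds, Gab2, Trac, Cd3d and Cd3g.

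Alternatives were RLE size factors, DESeq2 1.42.0, no low-count filter, an adjusted p under 0.01, a replicate block, a replicate block within genotype, a prior count of 2, and leaving out each library or replicate number. Same-numbered libraries of different cultures deviated together in WT of the Odc table (every one of 24 correlations over 0.1, lowest 0.206, median 0.284), so it counts as paired there; the block kept the calls of Kit between WT cultures. They did not meet that rule in the other groups.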

Additional observations from a re-analysis of the deposited data

Results flagged for a closer look

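Among 55 groups of 4 libraries in the Odc table with at least 1 library above 3 counts, 12 held a library far from the other 3 by Dixon's ratio (above its 95% critical value). Chance flags about 1 in 20 for normally distributed values. CPM of genes with few reads may be skewed, so that rate may not hold here. Of the 12, 11 are replicate 3 of an Odc-/- culture. In TH1 this was Cpa3 at 66.7 CPM. In TH17 they were Mcpt8 at 97.3 CPM, Prss34 at 15.3 CPM, Gata2 at 18.8 CPM and Pf4 at 12.0 CPM. In Treg they were Cpa3 at 74.2 CPM, Mcpt8 at 54.4 CPM, Fcer1a at 16.2 CPM, Ms4a2 at 8.67 CPM, Gata2 at 12.3 CPM and Ctsg at 12.3 CPM. The genes of a library are not independent, so these are not separate events. The remaining one was Kit in Odc-/- TH1 replicate 1, at 11.5 CPM against 6.86 to 7.60 CPM in the other 3. Groups of 3, which include all Dohh libraries and Odc-/- TH2, were not examined this way.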

How the results depend on the processing

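No direction of the 10 genes between deficient and WT libraries was reversed under any alternative run. Over single genes and comparisons, leaving out a library or a replicate number kept the call or its absence in 790 fits, lost a call in 38 and gained one in 2. The genes were picked on this contrast, so nothing is read from kept calls or from the counts of these genes that follow. The number of the 10 genes called higher stayed within 1.5 times its value throughout: with a library or replicate number left out it was 9 to 9 in Odc-/- TH1, 6 to 8 in TH2, 7 to 9 in TH17 and 7 to 9 in Treg, and 7 to 10, 9 to 9, 9 to 10 and 9 to 9 in the Dohh-/- cultures, with 0 to 0 called lower. Of the other basophil and mast cell genes, 9 to 13, 11 to 15, 14 to 20 and 14 to 18 were then called higher in Odc-/- TH1, TH2, TH17 and Treg and 12 to 16, 16 to 21, 24 to 26 and 22 to 25 in the Dohh-/- cultures. Their 8 lower calls became 5 to 9, and 5 at an adjusted p under 0.01.

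The tests between polarizations were less stable. The counts here cover all 10 genes, also those with too few reads in some cultures for the test to be read. Of the 4 that passed between Odc-/- cultures, 2 did at an adjusted p under 0.01 and 2 without a low-count filter, and 1 to 6 with a library or replicate number left out. The 4 that were lower in Odc-/- TH2 became 1 at an adjusted p under 0.01, 2 without a filter and 1 to 5 with omissions. The count in Dohh-/- cultures (3) ran from 1 to 6, in WT of the Odc table (1) from 1 to 3 and in WT of the Dohh table from 1 to 1. For genes lower in TH2 it ran from 1 to 1 in Dohh-/-, from 1 to 2 in WT of the Odc table and from 0 to 1 in WT of the Dohh table, where Kit lost its call without replicate 2, and 0 to 0 were higher in each. DESeq2 called 3 lower in WT TH2 of the Odc table (edgeR 1). The F test was not run in DESeq2.

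With a replicate block, 7 genes differed between Odc-/- cultures and 8 with the replicate block within genotype. For Dohh-/- cultures these were 6 and 7, 4 and 6 for WT of the Odc table, and 2 and 2 for WT of the Dohh table. Lower in WT TH2 of the Odc table were 3 and 3. Apart from Kit the genes called in WT have few WT reads, and nothing is read from them. The pairing holds by the rule used here in WT of the Odc table alone, and elsewhere the libraries share only a number. Of the genes with a test in the report, Cpa3 passed between Odc-/- cultures under either block (adjusted p = 0.00271 and 0.00012) and Mcpt8 within genotype (0.00285). Between Dohh-/- cultures Cpa3 (0.000617 and 0.000318), Fcer1a (0.0259 and 0.0145) and Mcpt8 (0.0366 and 0.00566) passed under either and Ctsg within genotype (0.00217). Under either block Cpa3 and Ctsg were lower in Odc-/- TH2, and no test of Ctsg is read there. Between deficient and WT libraries 1 call changed, that of Kit in Dohh-/- Treg, which was gained. Ms4a2, Rgs18 and Prss34 had so few counts in WT that their folds are imprecise, and the cause of these shifts was not tested.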
